A study of Mus musculus with 4 samples.

Results

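The 10 genes described here encode factors of early germ cells and prospermatogonia, and they were chosen by name from the 22396 named genes of the deposited ribosome profiling table: Pou5f1, Sall4, Utf1, Lin28a, Lin28b, Epcam, Cdh1, Prdm1, Prdm14 and Tfap2c. All 10 had a row, and all 10 had enough reads to carry an adjusted p. Ribosome footprints are the short stretches of mRNA that a ribosome shields from nuclease, so reads on a gene reflect both how much of its mRNA is present and how heavily it is translated, which cannot be told apart here. The samples were 2 of Ddx20 knockout mice and 2 of littermate control mice, each of THY1-positive testis cells. The labels give an input of about 1000 cells per library. DDX20 is a DEAD-box RNA helicase. The labels used here give neither the age of the mice nor how or in which cells the deletion was made, and nothing says that the samples of a genotype came from different animals, so p-values measure the spread between these samples, which may be technical.

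Prospermatogonia are the germ cells of the fetal and newborn testis, which pause in the cell cycle, resume it after birth and give rise to the spermatogonial stem cells. They descend from primordial germ cells, which are set aside by the transcription factors PRDM1, PRDM14 and TFAP2C and keep part of the pluripotency program, including POU5F1. In mouse testis, SALL4, UTF1 and LIN28A remain in undifferentiated spermatogonia, while EPCAM and E-cadherin sit on the surface of spermatogonia and of epithelia.

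The table holds 1 comparison per gene and no value per sample. Whole reads in 4 libraries, named A to D, were recovered from the deposited means. Libraries C and D are the side of positive fold changes and A and B the side of negative ones. Nothing in the table names the genotype of either side, so no genotype is assigned to a library, and each direction below would reverse if the sides were swapped. A gene that rose was higher in C and D, and a gene that fell was lower there.

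Libraries C and D held 282722 and 221439 reads on named genes, against 941014 and 789570 in A and B. One read is therefore worth 3.54 and 4.52 CPM (each library's reads scaled to the same sum) in C and D, and 1.06 and 1.27 CPM in A and B. Between C and D the reads of 7328 genes varied beyond sampling noise (chi-square over its degrees of freedom 1.11, p = 3.34e-10). Between A and B those of 8678 genes varied by less than sampling noise (0.968). For that reason A and B were also summed and counted as a single sample in an alternative. Ddx20 stood at 113 and 135 CPM in libraries C and D, against 305 and 309 CPM in A and B. The 9 germ cell markers, among them Ddx4 and Dazl, summed to 1150 and 1130 CPM in libraries C and D, against 5290 and 5650 CPM in A and B. All 9 fell in the authors' deposited table, and none was at 0 reads in any library. The 7 markers of undifferentiated spermatogonia, among them Gfra1 and Zbtb16, summed to 920 and 786 CPM in C and D, against 1430 and 1410 CPM in A and B, and 5 of the 7 fell in the authors' deposited table. Markers of other cells summed higher in C and D. In CPM, 62.7% of 17344 tested genes were higher in both C and D than in A and B. The 10 peritubular and stromal markers reached 3130 and 3200 CPM in C and D, against 1530 and 1500 CPM in A and B. The 8 endothelial markers reached 509 and 506 CPM in C and D, against 175 and 166 CPM in A and B. Leydig cell markers (152 and 172 CPM in C and D, against 63.8 and 59.5 CPM in A and B), macrophage markers (580 and 560 CPM against 306 and 301 CPM) and T cell markers (106 and 94.8 CPM against 14.9 and 17.7 CPM) did likewise. Sertoli cell markers summed to 265 and 298 CPM in C and D, against 220 and 191 CPM in A and B, and erythroid markers to 74.3 and 90.3 CPM, against 2.13 and 2.53 CPM. In the authors' deposited table, 5 peritubular and stromal markers rose and 2 fell, and 2 endothelial markers rose and 0 fell. Of 7 Leydig cell markers 0 were called, and of 7 macrophage markers 2 rose and 1 fell. Of 6 T cell markers 1 rose, and of 9 Sertoli cell markers 1 rose and 1 fell. Of 7 erythroid markers 2 were tested, and 1 rose. That was Slc4a1, which had 11 and 16 of the 21 and 20 summed erythroid reads in C and D. The globin genes had few reads, with 3 and 0 in C and D for Hbb-bs and 1 and 1 for Hbb-bt. Hba-a1 and Hba-a2 had 0 reads in C and D, with 1 read in A for Hba-a1 and 1 in B for Hba-a2. Over all tested genes 26.9% rose and 18.8% fell. Of the 4337 tested genes with the highest means, among them Ddx4, Dazl, Mael and Dnd1, 61.2% fell and 11.7% rose, so part of the marker falls goes with level. In these bulk samples, fewer germ cells and fewer footprints per germ cell cannot be told apart. Olfactory and vomeronasal receptor genes, which serve the nose, took 0.806% and 0.899% of all reads in C and D, against 0.00457% and 0.00469% in A and B. The part of these markers and shares in the results below was not tested.

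Epcam, Cdh1, Pou5f1 and Lin28a fell at an adjusted p under 0.05 in the authors' deposited table, Prdm14 rose, and the other 5 of the 10 genes did not pass. That is 4 falls and 1 rise, where 18.8% of all 17347 tested genes fell and 26.9% rose by the authors' deposited table (45.7% in either direction). The median log2 fold change of the 10 genes was -0.38 in the authors' deposited table, against 0.38 over all tested genes. Direction went with level in the whole table. Tested genes were parted into 4 classes of like size by their mean, and in the class with the highest means, which holds Epcam, Cdh1 and Sall4, 61.2% fell and 11.7% rose by the authors' deposited table. In the next class, with Pou5f1, Lin28a and Tfap2c, 13.3% fell and 28.7% rose by the authors' deposited table. In the one below, with Utf1, Lin28b, Prdm1 and Prdm14, 0.623% fell and 44.6% rose by the authors' deposited table. The class with the lowest means holds none of the 10 genes, and 0% of it fell and 22.5% rose by the authors' deposited table.

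**Figure D1:**
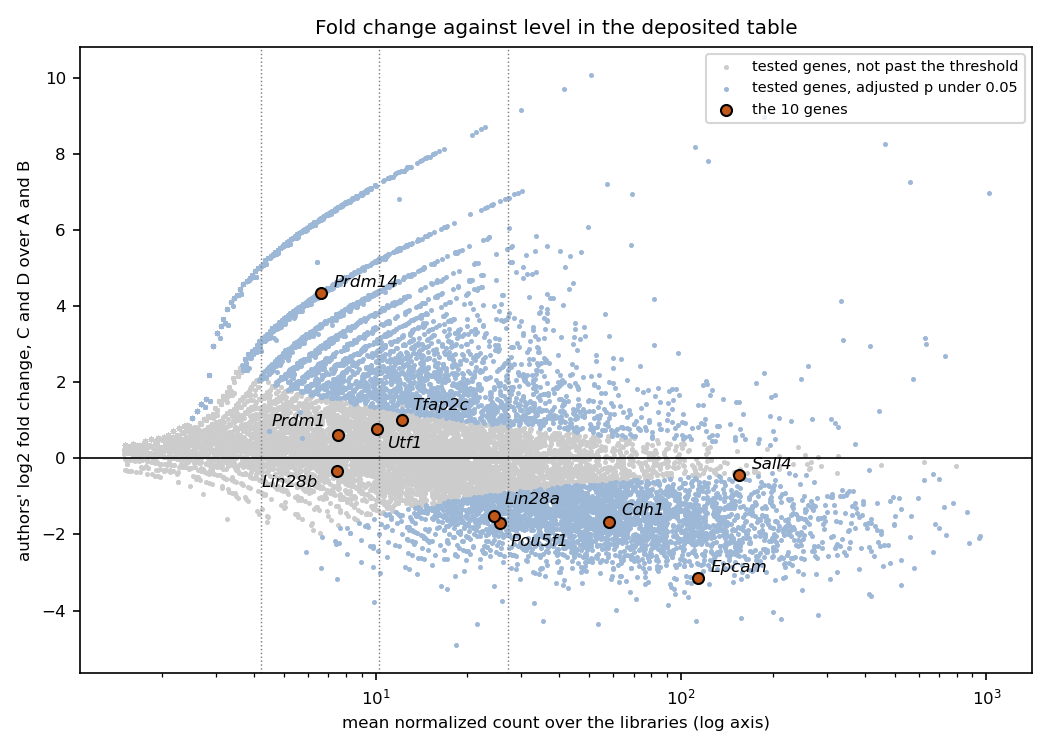
Authors' log2 fold change (C and D over A and B) against the mean normalized count (log axis) of each tested gene, with the 10 genes named; dotted lines part the 4 classes by mean. Epcam (-3.14) lies low among genes of its level, Prdm14 (4.36) lies on one of the curved bands of genes with few reads, and the other 8 lie between -1.69 and 1.01.

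The promoters of 2 genes that fell, Epcam and Pou5f1, and of 1 that did not pass, Utf1, are shown first, since transcription of these mRNAs starts there. Of the 10 genes, 6 had a promoter in the RefSeq table (build GRCm38.p6). Each line gives the 250 bases before the RefSeq start, 5′ to 3′ on the gene's strand, and capitals mark a GC box (GGGCGG) or a CCAAT box (CCAAT) on either strand. All 3 genes lie on the plus strand, Epcam at chr17:87635979-87651127, Pou5f1 at chr17:35506032-35510777 and Utf1 at chr7:139943856-139945112.
Epcam, chr17:87635729-87635978: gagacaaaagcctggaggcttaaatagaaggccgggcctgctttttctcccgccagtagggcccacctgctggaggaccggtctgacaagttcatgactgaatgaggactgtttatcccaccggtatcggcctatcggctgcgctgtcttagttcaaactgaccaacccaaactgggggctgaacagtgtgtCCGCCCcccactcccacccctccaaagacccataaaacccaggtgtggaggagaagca
Pou5f1, chr17:35505782-35506031: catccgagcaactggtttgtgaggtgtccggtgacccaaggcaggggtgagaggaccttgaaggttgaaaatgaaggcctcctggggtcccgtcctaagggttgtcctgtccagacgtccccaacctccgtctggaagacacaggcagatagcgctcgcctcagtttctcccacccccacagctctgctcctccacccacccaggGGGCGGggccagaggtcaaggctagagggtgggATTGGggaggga
Utf1, chr7:139943606-139943855: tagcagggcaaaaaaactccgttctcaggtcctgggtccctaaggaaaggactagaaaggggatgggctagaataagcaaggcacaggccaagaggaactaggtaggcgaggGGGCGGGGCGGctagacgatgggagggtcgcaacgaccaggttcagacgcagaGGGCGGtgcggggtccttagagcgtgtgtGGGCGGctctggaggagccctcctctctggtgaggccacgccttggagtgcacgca
Epcam has 1 GC box and no CCAAT box in this window, Pou5f1 has 1 of each, and Utf1 has 4 GC boxes, of which a pair overlaps by a shared G. Of 32851 promoters of the same length, 32.7% hold a GC box and 33.8% a CCAAT box. The octamer ATGCAAAT, the motif that POU-domain factors such as POU5F1 bind, is in 1.60% of those windows and was found in none of the 3. Percent GC was 56.4 for Epcam, 62.0 for Pou5f1 and 61.6 for Utf1, against a median of 52.4 over all promoters. The promoters not shown, of Lin28a, Lin28b and Prdm1, hold no GC box and no octamer. Lin28b and Prdm1 have 1 CCAAT box each, and Lin28a has none. Percent GC was 61.2 for Lin28a, 39.2 for Lin28b and 59.2 for Prdm1, so the 3 shown do not stand for all 6.

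The adhesion proteins gave the clearest falls. Epcam, a homophilic adhesion protein used to sort spermatogonia, had 14 and 16 reads in libraries C and D, against 341 and 298 in A and B. That is 49.5 and 72.3 CPM in C and D, against 362 and 377 CPM in A and B, so the sides did not overlap. The log2 fold change of Epcam in the authors' deposited table was -3.14 (SE 0.306, adjusted p = 1.98e-23). Cdh1 (chr8:106603350-106670247) encodes E-cadherin, which joins neighbouring cells through calcium-dependent contacts. It had 19 and 17 reads in libraries C and D, against 164 and 118 in A and B (67.2 and 76.8 CPM against 174 and 149 CPM). Its sides did not overlap either, and its log2 fold change in the authors' deposited table was -1.66 (SE 0.325, adjusted p = 1.12e-06). The ratio of Epcam to Cdh1 reads, which no scaling changes, was 0.737 and 0.941 in C and D, against 2.08 and 2.53 in A and B. Pooled over each pair of libraries the ratio was 0.833 (95% exact interval 0.496 to 1.39) in C and D, against 2.27 (1.97 to 2.62) in A and B. These and all other intervals here cover counting error only.

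Epithelial cells also carry EPCAM and E-cadherin, and the summed level of the epithelial markers was higher in C and D. The 7 epithelial markers summed to 311 and 262 CPM in libraries C and D, against 30.8 and 25.3 CPM in A and B. Krt5, Krt7, Krt18 and Krt19 rose in the authors' deposited table, which is 4 of 6 tested markers, and none of the 6 fell. By mean, Krt18 and Krt19 lay in the class of Pou5f1, where 28.7% of genes rose and 13.3% fell, and Krt5 and Krt7 in that of Utf1, where 44.6% rose and 0.623% fell. The authors' deposited table gave no call for Krt14 (adjusted p = 0.0991) or Cldn4 (0.317), and Krt8, with 1 and 0 reads in C and D, against 1 and 2 in A and B, was not tested. Of the 7, the number at 0 reads was 0 and 1 in C and D, against 1 and 2 in A and B. The part of these cells in the Epcam and Cdh1 values was not tested.

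Of 11 tested partners of cadherins and EPCAM, 5 fell and 1 rose by the authors' deposited table, with a median of 0.01. Over all tested genes 18.8% fell and 26.9% rose, but 10 of these 11 had a mean of 15 or more normalized counts, where 45.8% of tested genes at that level fell and 16.5% rose by the authors' deposited table. Those with the smallest p were the cadherin-bound catenin Ctnnb1 (-1.50), the tetraspanin Cd9 (-2.48), which associates with EPCAM, and the catenin Ctnna1 (-0.88), all in the authors' deposited table. Cd9 had 17 and 20 reads in C and D, against 254 and 245 in A and B. Cdh3, the P-cadherin gene and a paralogue of Cdh1, also fell in the authors' deposited table (-1.68, adjusted p = 7.20e-07).

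**Figure D2:**
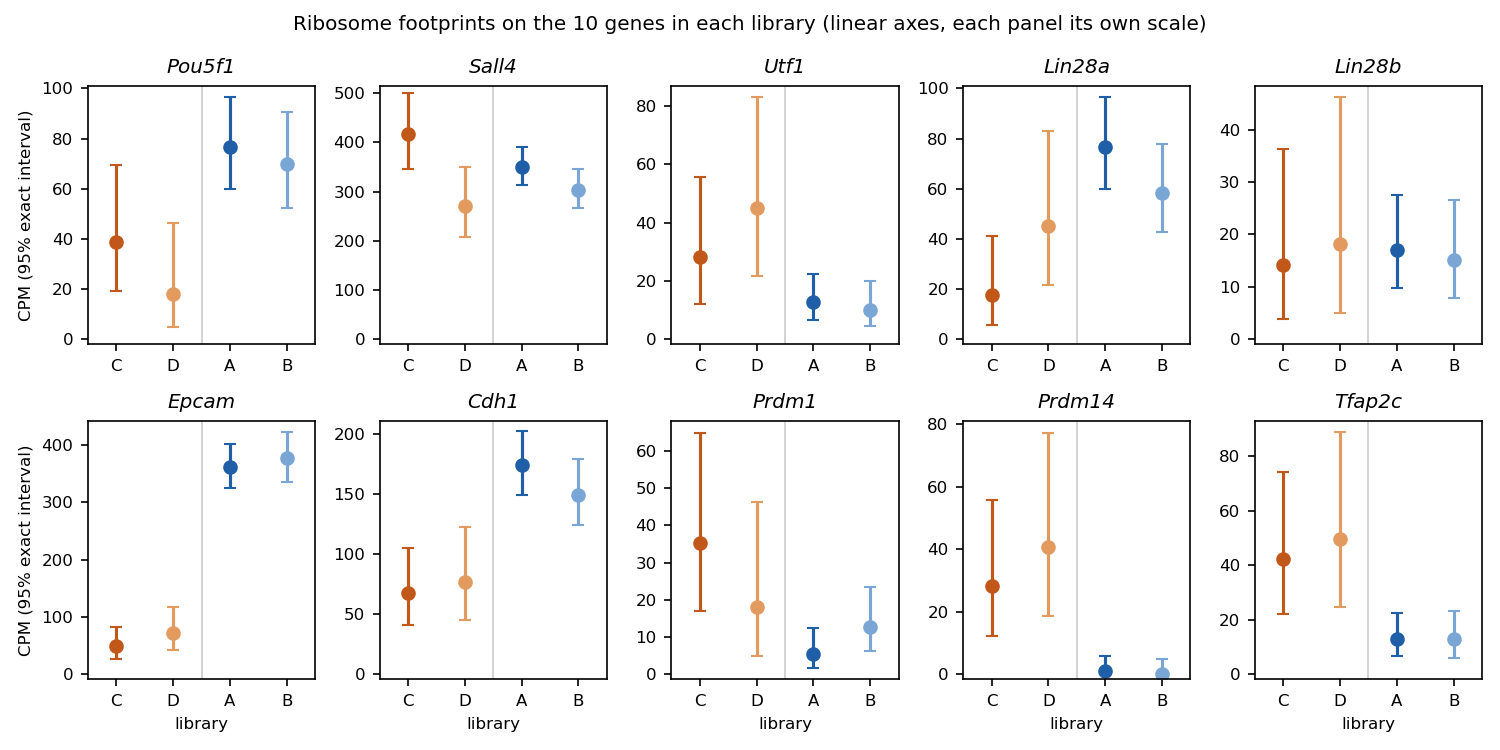
CPM of each of the 10 genes in libraries C, D, A and B, with the 95% exact interval for counting error; axes are linear and each panel has its own scale. Epcam, Cdh1, Pou5f1 and Lin28a are lower in both C and D than in A and B, Utf1, Prdm1, Prdm14 and Tfap2c are higher in both, and Sall4 and Lin28b overlap.

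Among the pluripotency factors, Pou5f1 fell while Sall4 and Utf1 did not pass the test. Pou5f1 encodes OCT4, the POU-domain factor at the centre of the pluripotency network. It had 11 and 4 reads in libraries C and D, against 72 and 55 in A and B, or 38.9 and 18.1 CPM against 76.5 and 69.7 CPM. Both C and D lay below both A and B. The log2 fold change in the authors' deposited table was -1.69 (SE 0.510, adjusted p = 0.00136).

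Sall4 (chr2:168748332-168767201), a zinc finger factor that recruits the NuRD repressor complex, had the most reads of the 10 genes. There were 118 and 60 reads in C and D, against 329 and 240 in A and B, which is 417 and 271 CPM against 350 and 304 CPM. In CPM the sides overlapped, with library C the highest and library D the lowest of the 4. The log2 fold change in the authors' deposited table was -0.44 (SE 0.293, adjusted p = 0.186). With limma on the recovered reads and the authors' size factors Sall4 passed (-0.48, adjusted p = 0.00420). It did not pass without library A (limma, -0.39, adjusted p = 0.0997) or without library D (limma, -0.20, adjusted p = 0.182), while without library C the value was -0.83 (limma, adjusted p = 1.30e-05), and its direction turned with library totals (0.07, adjusted p = 0.682). Library totals shift the median of all genes by 0.56, so the direction of Sall4 depends on the scaling.

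Ratios within a library show how far Sall4 and the genes that fell parted. The ratio of Sall4 to Epcam reads was 8.43 and 3.75 in libraries C and D, against 0.965 and 0.805 in A and B. Pooled over each pair, it was 5.93 (95% exact interval 4.01 to 9.05) in C and D, against 0.890 (0.794 to 0.999) in A and B. The ratio of Sall4 to Pou5f1 reads was 11.9 in C and D pooled, against 4.48 (3.69 to 5.47) in A and B pooled.

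Utf1, a chromatin-bound factor of pluripotent cells and undifferentiated spermatogonia, had 8 and 10 reads in C and D, against 12 and 8 in A and B. In CPM both C and D were higher (28.3 and 45.2) than A and B (12.8 and 10.1). The log2 fold change in the authors' deposited table was 0.78 (SE 0.674, adjusted p = 0.207). With limma and the authors' size factors Utf1 passed (1.05, adjusted p = 0.0344), but not without library A (limma, 1.22, adjusted p = 0.0663), B (0.94, 0.128) or D (0.76, 0.301), or with TMM factors (0.91, 0.0659), where the direction stayed positive.

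Of 19 other tested genes of the naive pluripotency network, 4 rose and 2 fell in the authors' deposited table, with a median of 0.55. The authors' deposited table has falls of the cytokine-activated factor Stat3 (-1.48) and the nuclear receptor Nr5a2 (-1.78) and a rise of Klf4 (1.34), a zinc finger factor. Klf4 had 28 and 24 reads in C and D, against 25 and 19 in A and B. Over all tested genes 26.9% rose and 18.8% fell, so these counts do not set the network apart. Of the 19, 6 had a mean of 15 or more normalized counts. Of 13 tested NuRD subunits, 6 fell and 2 rose by the authors' deposited table, with a median of -0.57. Of the 13, 12 had a mean of 15 or more, where 45.8% of tested genes at that level fell and 16.5% rose, so 6 falls are near the share of their level. The histone chaperones Rbbp7 (-2.47) and Rbbp4 (-2.39) and the remodeller Chd4 (-1.17) had the smallest p in the authors' deposited table.

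Lin28a (chr4:134003330-134019196) and Lin28b (chr10:45376617-45486314) encode RNA-binding proteins that block the maturation of let-7 microRNAs, which repress genes by pairing of their seed. The mature forms below show the seed (bases 2 to 8) in capitals, since it is the stretch that pairs with target mRNAs. Of 11 mature let-7 and miR-98 sequences in the RefSeq table, 10 share it, and let-7j is the exception.
mmu-let-7a-5p: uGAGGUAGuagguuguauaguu
mmu-let-7g-5p: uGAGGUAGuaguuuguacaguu
mmu-miR-98-5p: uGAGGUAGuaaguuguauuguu
mmu-let-7j: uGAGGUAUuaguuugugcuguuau
No microRNA was measured. Lin28a had 5 and 10 reads in libraries C and D, against 72 and 46 in A and B, or 17.7 and 45.2 CPM against 76.5 and 58.3 CPM. Both C and D were lower, and the log2 fold change in the authors' deposited table was -1.52 (SE 0.523, adjusted p = 0.00434). Without library C the limma adjusted p of Lin28a was 0.0476, its highest over 12 limma settings, and the fold change was -1.09 there, against -1.79 with all 4 libraries.

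Lin28b had 4 and 4 reads in C and D, against 16 and 12 in A and B. The CPM values of 14.1 and 18.1 in C and D enclosed those of A and B. The log2 fold change in the authors' deposited table was -0.32 (SE 0.696, adjusted p = 0.609). It passed in none of 11 limma settings and turned positive with library totals (0.09). The pooled fold change of Lin28b, on the authors' size factors, was -0.58 on the log2 scale with a 95% exact interval of -1.93 to 0.59, so the depth leaves a wide range open. The ratio of Lin28b to Lin28a reads was 0.533 (0.196 to 1.34) in C and D, against 0.237 (0.151 to 0.361) in A and B. These intervals overlap, but overlap is no test, and whether the ratio differed between the sides was not tested.

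Of 8 tested genes of let-7 processing and decay, 4 fell and 1 rose by the authors' deposited table, with a median of -0.62. Of the 8, 7 had a mean of 15 or more, where 45.8% of tested genes at that level fell and 16.5% rose, so these counts too are near that share. The exporter Xpo5 (-1.72), the nuclear processor Drosha (-1.12) and Dicer1 (-0.96) had the smallest p in the authors' deposited table. Of 18 tested let-7 target genes, 8 fell and 3 rose by the authors' deposited table, with a median of -0.53. They included the RNA-binding protein Igf2bp1 (-1.92) and the cyclins Ccnd2 (-1.87) and Ccnd1 (-1.71), all lower in the authors' deposited table. Of the 18, 16 had a mean of 15 or more, where 45.8% of tested genes at that level fell and 16.5% rose, and 8 falls are near that share.

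**Figure D3:**
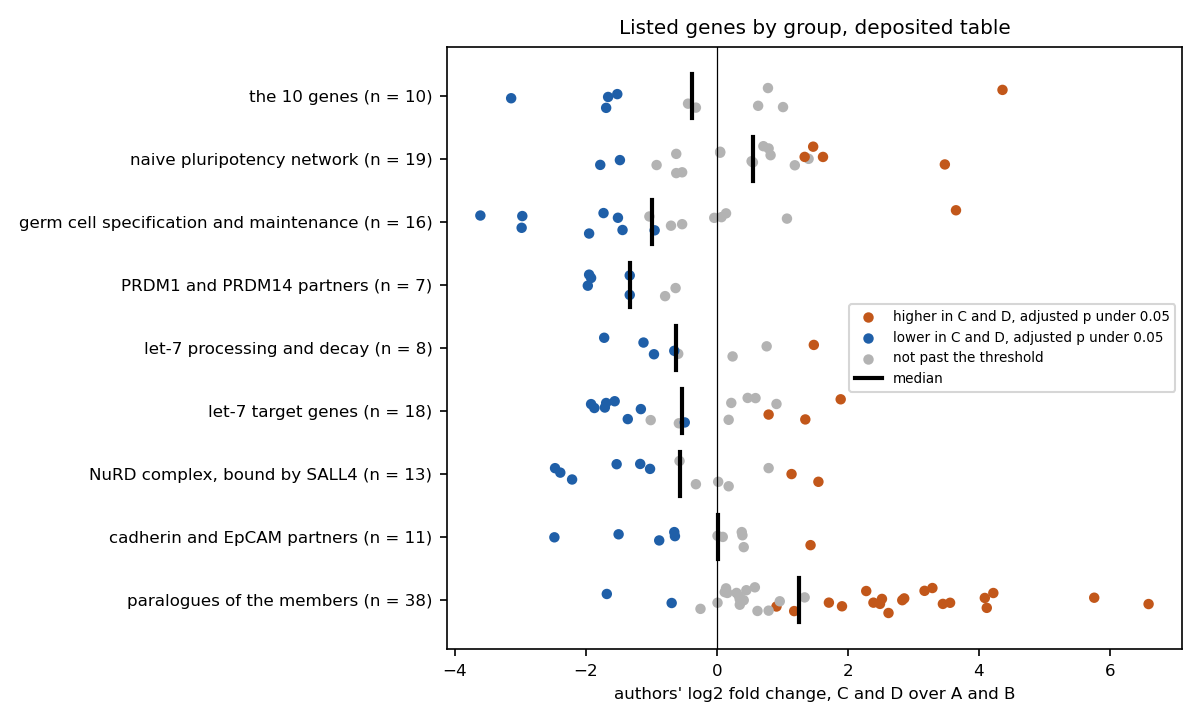
Authors' log2 fold change of each tested gene, grouped into the 10 genes and the 8 related lists; each point is a gene, coloured by the test, and the bar is the median. PRDM1 and PRDM14 partners have the lowest median (-1.33) and paralogues of the 10 genes the highest (1.26). The lists differ in level, and direction went with level in the whole table.

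The 3 factors that specify germ cells had few reads, and none of them fell. In the class by mean of Prdm1 and Prdm14 only 0.623% of tested genes fell by the authors' deposited table. In that of Tfap2c 13.3% fell, so the lack of falls does not set the 3 apart. Prdm14 (chr1:13113428-13127163), a PR-domain zinc finger protein that represses somatic and differentiation genes in germ cell precursors, had 8 and 9 reads in libraries C and D, against 1 and 0 in A and B. That is 28.3 and 40.6 CPM in C and D, against 1.06 and 0 CPM in A and B, where a count of 0 in B allows up to 3.80 CPM. The log2 fold change of Prdm14 in the authors' deposited table was 4.36 (SE 1.56, adjusted p = 0.00464). The ratio of the pooled reads was 5.31 on the log2 scale, with a 95% exact interval of 2.64 to 10.70 on the authors' size factors.

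Tfap2c (chr2:172545678-172558622) encodes the AP-2 gamma factor, which acts downstream of PRDM1 in mouse germ cell precursors. It had 12 and 11 reads in C and D, against 12 and 10 in A and B, which is 42.4 and 49.7 CPM against 12.8 and 12.7 CPM. The sides did not overlap in CPM, but the authors' deposited table gave no call (log2 fold change 1.01, SE 0.634, adjusted p = 0.0946). With limma on the recovered reads Tfap2c passed in all 11 settings that kept it, with values of 1.14 to 1.84.

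Prdm1 (chr10:44437174-44528558) encodes BLIMP1, the repressor that opens germ cell specification and that also acts in plasma cells and other lineages. It had 10 and 4 reads in C and D, against 5 and 10 in A and B, or 35.4 and 18.1 CPM against 5.31 and 12.7 CPM. On the authors' size factors library D fell between A and B. The log2 fold change in the authors' deposited table was 0.63 (SE 0.757, adjusted p = 0.331). Under limma with the authors' size factors Prdm1 passed (1.19, adjusted p = 0.0436), but not without library A (limma, 0.50, adjusted p = 0.469) or library C (0.72, 0.536), nor with TMM factors (1.02, 0.0955).

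Receptor genes of the nose show what reads a gene that testis cells have little use for received in each library. Over 1547 such genes the median was 1 read in library C and 1 in D, against 0 in A and 0 in B. The highest was 10 and 9 reads in C and D, against 2 and 2 in A and B. Tfap2c had more reads than any of the 1547 receptor genes in both C and D. For Prdm14, 4 receptor genes had at least as many reads in C and 1 in D, and for Utf1 4 in C and 0 in D. For Lin28b the counts were 137 and 107, and for Prdm1 1 and 107. The 95th percentile of the receptor genes was 4 reads in C and 4 in D. Lin28b in both libraries and Prdm1 in D were at that percentile. Of the genes that fell, Pou5f1 in D (4 reads) was at it too. Lin28a in C (5 reads) was above it but within the range of the receptor genes. Pou5f1 in C (11 reads) and Lin28a in D (10 reads) were above that range. Prdm14 in both, Prdm1 in C and Utf1 in C were above it but within the range of the receptor genes. In both C and D together, 27 of the 1547 receptor genes had at least as many reads as Lin28b and 1 as many as Prdm1. For Prdm14 and Utf1 that number was 0. These are raw reads with no account of gene length, so they do not rank the genes by level.

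**Figure D4:**
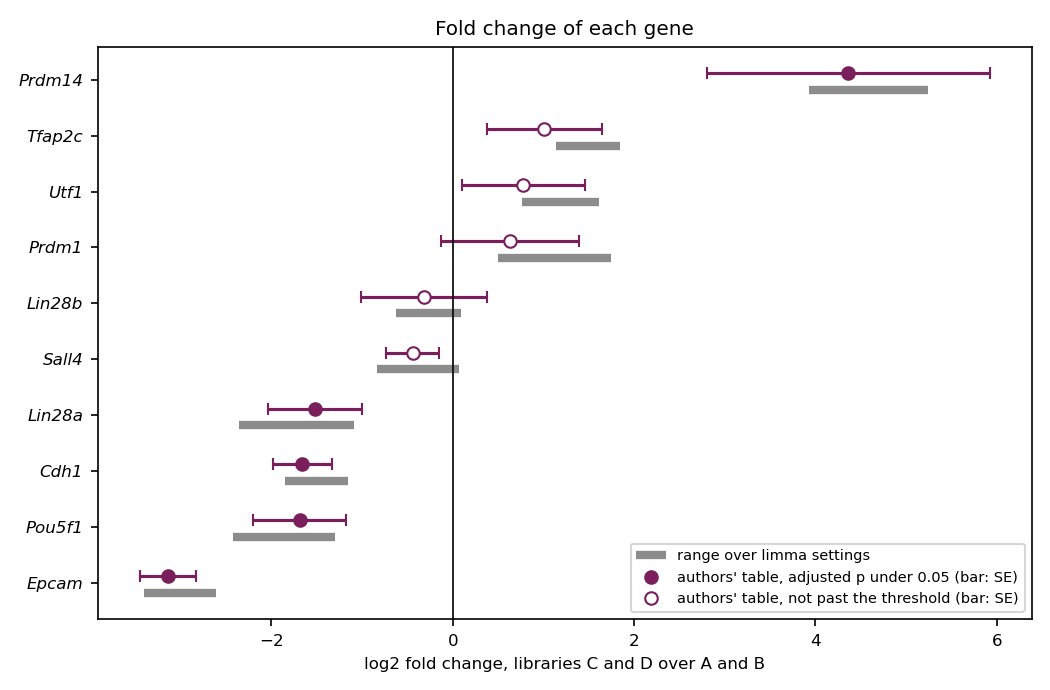
Log2 fold change (C and D over A and B) of the 10 genes: points with SE bars are the authors' deposited values, filled where the adjusted p was under 0.05, and grey bars span the limma settings. The bars of Epcam, Cdh1, Pou5f1 and Lin28a lie wholly below 0 and those of Prdm14, Tfap2c, Utf1 and Prdm1 wholly above, while those of Sall4 and Lin28b cross it.

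Of 7 tested partners of PRDM1 and PRDM14, 5 fell and none rose in the authors' deposited table, with a median of -1.33. Of the 7, 6 had a mean of 15 or more, where 45.8% of tested genes at that level fell and 16.5% rose. These 6 had means of 51.1 to 163, in the class with the highest means. In that class 61.2% fell and the median was -1.05, so 5 falls are near the share of their level. The arginine methyltransferase Prmt5 (-1.92), a binding partner of PRDM1, and the Polycomb proteins Jarid2 (-1.33) and Eed (-1.97) had the smallest p in the authors' deposited table. Of 16 tested genes of germ cell specification and maintenance, 8 fell and 1 rose by the authors' deposited table, with a median of -0.99. Of the 16, 12 had a mean of 15 or more, where 45.8% of tested genes at that level fell and 16.5% rose. The RNA-binding protein Dazl (-3.61) and the helicase Ddx4 (-2.97) were lower, and the interferon-induced membrane protein Ifitm3 (3.65) higher, in the authors' deposited table. Ifitm3 had 59 and 34 reads in C and D, against 11 and 5 in A and B. Ddx4, Dazl, Mael and Dnd1 of this list are also among the 9 germ cell markers.

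Set against the germ cell markers of the same library, where no scaling enters, the 10 genes took another order. Epcam had 42.9 and 63.7 reads per 1000 germ cell marker reads in C and D, against 68.6 and 66.8 in A and B. Pooled over each pair of libraries the log2 ratio of Epcam was -0.38, with a 95% exact interval of -0.96 to 0.15, so a difference was not detectable on this scale. Cdh1 had 58.3 and 67.7 in C and D, against 33.0 and 26.5 in A and B, and Pou5f1 had 33.7 and 15.9, against 14.5 and 12.3. Sall4 had 362 and 239 in C and D, against 66.1 and 53.8 in A and B. Lin28a had 15.3 and 39.8 in C and D, against 14.5 and 10.3 in A and B. Tfap2c had 36.8 and 43.8 in C and D, against 2.41 and 2.24 in A and B. The other 9 genes had more reads per germ cell marker read in both C and D than in either A or B. Their pooled log2 ratios ran from 0.95 (0.07 to 1.73) for Pou5f1 and 1.06 (0.17 to 1.84) for Lin28a to 8.12 (5.44 to 13.50) for Prdm14. These intervals leave out the counting error of the markers, and the markers themselves fell by different amounts, with log2 fold changes of -1.37 for Tdrd9 to -3.61 for Dazl in the authors' deposited table. The median of the 9 markers was -2.97 there. Over all tested genes it was 0.38, and in the class with the highest means -1.05. A gene that fell less than the markers comes out higher on this scale, so the count of 9 does not set these genes apart. The share of all tested genes that do so was not computed.

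**Figure D5:**
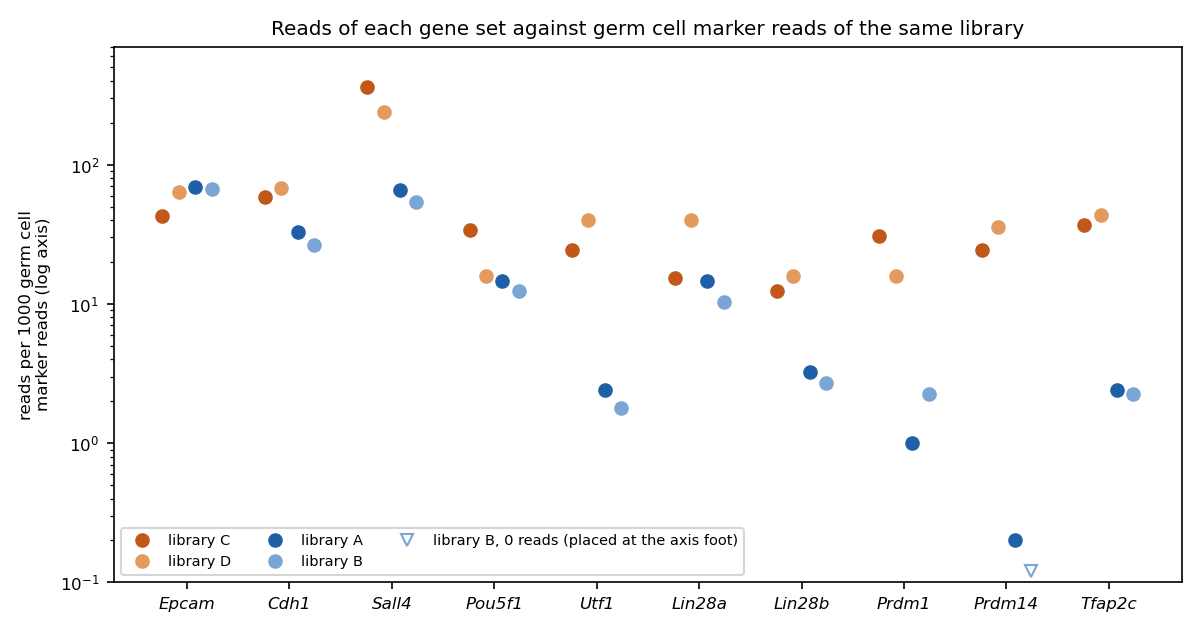
Reads of each of the 10 genes per 1000 reads of the 9 germ cell markers in the same library (log axis); points are libraries C, D, A and B, and the open triangle is Prdm14 in library B, with 0 reads. The points of Epcam lie lowest in C (42.9), and the other 9 genes are higher in C and D than in A and B. The markers themselves fell, so any gene that fell less than the markers comes out higher here.

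Counted by library on the authors' size factors, both C and D lay below both A and B for 6 of the 10 genes and above for 3, while Prdm1 overlapped. Over 17344 tested genes with recovered reads the shares were 30.8% below and 53.9% above. In CPM, 4 of the 10 lay below, 4 above and 2 overlapped, against 22.3% below and 62.7% above over those genes. With limma and the authors' size factors, 4 of the 10 rose and 5 fell, where 40.9% of 14470 genes rose and 28.8% fell. With library totals limma called 4 rises and 4 falls among the 10, where 50.2% of all genes rose and 18.9% fell. With upper-quartile factors there were 4 rises and 5 falls (41.4% and 27.7% of all genes). TMM factors gave 2 rises and 5 falls (38.2% and 31.4%), and the same counts without mitochondrially encoded genes (38.1% and 31.3%). With at least 1 read per gene there were 3 rises and 5 falls (54.9% and 20.2%), and with at least 50 reads 0 and 5 among the 5 genes kept (19.9% and 51.7%). With A and B summed there were 3 rises and 5 falls (39.5% and 27.3%). Without library C there were 3 rises and 5 falls (28.1% and 24.7%), and without D 2 and 4 (29.5% and 26.7%). Without library A there were 2 rises and 4 falls (36.1% and 26.8%), and without B 3 and 5 (36.7% and 27.2%).

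Genes whose profile over the 4 libraries was nearest to that of a member were found for the 3 members with the most reads, among 5113 genes with at least 100 reads. For Sall4 these were Wrnip1, Ccnd3 and Ptpn3, for Epcam Magoh, Mrpl44 and Gtpbp4, and for Cdh1 Cstf2, Erap1 and Polr3a. Within a distance of 0.25 (Euclidean, in centred log2 CPM over the 4 libraries) lay 88 genes for Sall4, 7 for Epcam and 171 for Cdh1, so the profile of Epcam had fewer close neighbours than the other two.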

How the data were processed

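The only deposited file used is 1 table of 22397 rows with a mean, a log2 fold change with its standard error, a p-value and an adjusted p-value per gene. Per the file headers, the mean is a signal over all libraries (counts divided by size factors by the authors), and the log2 values and p-values are the authors' own as deposited. The authors' adjusted p equals a Benjamini-Hochberg adjustment to within 1.22e-15. Whether fold changes were shrunken is not stated. In the authors' deposited table genes with a single read have values of only 0.12 or -0.08. Gdf3 has a fold change below its SE (3.48, SE 3.67) at a deposited adjusted p of 0.0201, so p did not come from the ratio of the 2. Deposited values of 3 members with few reads lie nearer 0 than those of limma with the authors' size factors. These are Utf1 (0.78 against 1.05), Prdm1 (0.63 against 1.19) and Tfap2c (1.01 against 1.28). Per the submitters' processing notes Trimmomatic 0.39, STAR 2.7.5c, StringTie 2.1.7 and build mm10 were used, with roles and annotation not given in the sources used here. One row without a name (0.00475% of the summed means) was left out.

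Means were solved for whole reads in 4 libraries: 20512 of 20515 rows had 1 solution (99.985%, to a relative 8e-15). The 3 rows with more than 1 solution carry no reads here, and of 500 means moved by a relative 1e-09 0 had one. Libraries were named by size factor, and their side was read from genes with a single read. As an alternative, limma 3.58.1 (voom) was run on these reads (at least 10 in all, 14470 genes) with the authors' size factors, with other scalings and filters, with A and B summed, and without each library; its adjusted p is over all genes it kept. Both scripts were tested on simulated data. There, at an assumed dispersion of 0.05, limma called 6% of 2-fold changes and 52% of 4-fold changes, with 3 false calls. Most 2-fold changes were thus missed there, so a gene that limma did not call may still differ between the sides. How far these rates hold for the deposited data was not tested. The solving of reads was exact for 99.995% of 20080 rows, with 0 wrong single solutions. Intervals are 95% exact binomial (Clopper-Pearson), and a count of 0 was taken to allow 3 reads. No transcript lengths were used, so different genes are set side by side only as raw reads or as ratios between libraries, not as levels.

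The 10 genes, the 8 related lists, the markers and the tests were chosen with earlier results of these data known. Named genes of a list are the up to 3 called ones with the smallest deposited p, with members, Ddx20 and Thy1 also named, and for the 3 members with the most reads the 3 genes of nearest profile. All 10 genes matched the RefSeq table by symbol.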

Additional observations from a re-analysis of the deposited data

How the results depend on the processing

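No paired analysis was possible because the deposited table has no column per sample and the recovered libraries carry no replicate number. Epcam, Cdh1, Pou5f1 and Lin28a fell in all 12 limma settings, and Prdm14 rose in the 10 that kept it; it passes the read filters only through its reads in C and D, so these 10 say nothing of its stability, and it drops out without library D. The count of 1 gene of the 10 that rose in the authors' deposited table became 4 with limma and the authors' size factors, 4 with library totals, 4 with upper-quartile factors, 3 with at least 1 read, 3 with libraries A and B summed, 2 with TMM factors, 2 with TMM factors without mitochondrially encoded genes, and 0 with at least 50 reads, a filter that only Epcam, Cdh1, Pou5f1, Lin28a and Sall4 pass; leaving out 1 library gave 2 to 3. The count of falls was 4 or 5 in every setting. Sall4 turned to 0.07 and Lin28b to 0.09 with library totals, neither past the threshold; that scaling shifts the median of all genes by 0.56. Over all genes, 4663 rises in the authors' deposited table became 2791 at an adjusted p under 0.01, 7270 with limma and library totals, 1547 with at least 50 reads and 11261 with at least 1 read; falls stayed between 2634 and 4537, against 3257. With A and B summed, 1 library stands for that side and is assumed to vary like the others. Utf1, Lin28b, Prdm1, Prdm14 and Tfap2c had 4 to 12 reads in each of C and D, against 0 to 16 in each of A and B, so counts are low on both sides. Pou5f1, with 11 and 4 reads, and Lin28a, with 5 and 10, also had low counts in C and D. Thy1, the marker of the sort, had 1 and 3 reads in C and D, against 18 and 15 in A and B (-1.05 in the authors' deposited table, adjusted p = 0.156; limma -1.68, adjusted p = 0.00829).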

Other observations

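Of 38 tested paralogues of the 10 genes, many of which serve other tissues, 20 rose, 2 fell and 16 had no call by the authors' deposited table, with a median log2 fold change of 1.26, against 26.9% rises and 18.8% falls over all tested genes of that table. Of the 38, 14 had a mean of 15 or more, where 16.5% of tested genes rose and 45.8% fell. The rest had lower means. In the class of Utf1 44.6% of tested genes rose and 0.623% fell, and in the class with the lowest means 22.5% rose and 0% fell. Part of the difference from all tested genes thus goes with level, and how much was not tested. By the rule on smallest p, those named are Prdm11 (2.86) and Prdm13 (4.09), which rose, and Cdh3, which fell, all in the authors' deposited table. Prdm13, which acts in the nervous system, had 14 and 15 reads in C and D, against 2 and 1 in A and B. The neural POU factors Pou3f3 and Pou4f2, named after their values were seen, had 11 and 9 and 7 and 7 reads in C and D, against 0 and 0 in A and B for both. Other POU genes of the list had reads on both sides. Pou3f1 had 38 and 21 reads in C and D, against 35 and 33 in A and B, and Pou4f1 8 and 6, against 3 and 2. Since Pou3f3 and Pou4f2 were picked by their values, they carry no weight for Prdm14, which had 8 and 9 reads in C and D, against 1 and 0 in A and B. Whether the reads of these genes share a source was not tested.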
